A study of Mus musculus with 8 samples.

Results

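Dnm3, St18, Mboat2, and St6gal1 were examined in splenic T cells of mice that lack SDHA in T cells and of WT mice. The 4 genes were picked out of 20170 in the matrix because their levels differed between stimulated SDHA-KO and stimulated WT cells, so they were chosen by the values of that contrast, which are given here as a description without a test. Single-cell RNA sequencing was performed on 8 libraries, made from WT or SDHA-KO T cells with or without stimulation, in duplicate, so that each of the 4 groups held 2 libraries. SDHA-KO mice carried Sdha fl/fl and CD4-Cre, and WT mice were the controls of the same study, on a B6 background and 8 to 12 weeks old. All cells were purified from spleens with a magnetic pan T cell kit and cleared of dead cells. Stimulated cells were cultured for 48 h with soluble anti-CD3 (5 μg/mL) and anti-CD28 (2.5 μg/mL), and unstimulated cells were cultured alone. CD4-Cre becomes active in CD4+CD8+ thymocytes, a stage that γδ T cells bypass, so deletion is not assured in every cell of a pan T cell preparation. The labels do not say whether the replicates came from separate mice, so p-values measure only the spread between these libraries.

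SDHA is the catalytic subunit of succinate dehydrogenase (complex II), which oxidizes succinate in the TCA cycle and passes the electrons to the respiratory chain. The 4 genes belong to unrelated families. Dnm3 encodes a dynamin, a GTPase that wraps around the neck of a budding vesicle and cuts it from the membrane, and is best known from neurons. St18 encodes a zinc-finger transcription factor of the MYT family, studied mainly in the nervous system and in pancreatic islets. Mboat2 encodes a membrane-bound O-acyltransferase that attaches unsaturated fatty acids to lysophospholipids, a step in the remodeling of membrane lipids. St6gal1 encodes the sialyltransferase that caps the galactose ends of N-glycans on surface and secreted glycoproteins with sialic acid, which makes the glycan ligand of the lectin CD22.

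In the RefSeq annotation of GRCm38 (mm10, the build named in the labels), Dnm3 spanned chr1:161982450-162478321, St18 spanned chr1:6487231-6860940, Mboat2 spanned chr12:24831435-24964400, and St6gal1 spanned chr16:23224729-23360350. Windows from 250 bases before to 50 bases after a transcript start were read from RefSeq (GRCm38.p6) for 3 of the 4 genes. The letters of the binding motifs of factors that act on T cell activation or in hypoxia were searched on both strands, because stimulation is the condition in which the 4 genes differed. The core of the NFAT site, TGGAAA, was present once in the Dnm3 window (chr1:162477985-162478284, minus strand, at -69 to -64 from the start) and once in the Mboat2 window (chr12:24831349-24831648, plus strand, at -139 to -134), the genes whose levels moved furthest apart in opposite directions. Of 3 St6gal1 windows, the third (chr16:23290220-23290519, plus strand) held the AP-1 site TGANTCA at -15 to -9. The second held ACGTG, the core of the hypoxia response element, on the minus strand, and the first held none of the motifs searched. Of the windows that contain a motif, those of Dnm3, Mboat2, and St6gal1 start 3 are shown, with the motifs in capitals. The second St6gal1 window is not shown.
Dnm3: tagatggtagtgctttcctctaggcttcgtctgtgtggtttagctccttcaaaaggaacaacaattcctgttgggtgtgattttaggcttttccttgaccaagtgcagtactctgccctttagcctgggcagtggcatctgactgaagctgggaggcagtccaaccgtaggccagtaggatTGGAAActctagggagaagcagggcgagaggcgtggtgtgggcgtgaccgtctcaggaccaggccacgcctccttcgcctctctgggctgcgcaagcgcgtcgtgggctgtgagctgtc
Mboat2: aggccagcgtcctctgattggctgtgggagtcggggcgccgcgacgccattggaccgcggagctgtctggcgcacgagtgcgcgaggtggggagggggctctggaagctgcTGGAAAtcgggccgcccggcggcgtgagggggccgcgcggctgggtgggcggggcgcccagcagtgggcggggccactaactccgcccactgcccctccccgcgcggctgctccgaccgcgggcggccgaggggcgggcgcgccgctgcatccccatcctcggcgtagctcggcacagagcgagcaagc
St6gal1, start 3: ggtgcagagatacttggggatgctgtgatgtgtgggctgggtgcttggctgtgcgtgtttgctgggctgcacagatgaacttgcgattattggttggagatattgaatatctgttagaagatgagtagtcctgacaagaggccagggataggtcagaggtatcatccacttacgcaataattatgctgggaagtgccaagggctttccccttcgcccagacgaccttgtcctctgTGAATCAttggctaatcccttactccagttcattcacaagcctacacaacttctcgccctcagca
TGGAAA was present in 21.4% of all 32851 windows of this length, TGANTCA in 7.81%, and ACGTG in 19.6%. The other motifs searched were CACGTG, the E-box, which contains ACGTG (7.15% of windows), TGACGTCA, the cAMP response element (1.79%), and CCGGAAG, an ETS site (8.86%), and they were found in no window of the 3 genes. The Mboat2 window was richer in G and C (76.3%) than the Dnm3 window (56.3%). A match to letters is a description and does not show that a factor binds there.

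The libraries held 1395 to 1801 cells and 10947009 to 51398728 unique molecular identifiers (UMIs, each counted once per captured RNA molecule). The median was 7572 to 9090 UMIs per cell without stimulation, 13745 and 13809 in stimulated WT, and 25117 and 25466 in stimulated SDHA-KO. Cells with at least 10% mitochondrial UMIs made up 64.5% and 68.2% of stimulated WT and 16.1% and 19.9% of stimulated SDHA-KO cells, against at most 0.139% of unstimulated cells. Of 12846 cells, 23 barcodes occurred in more than 1 library. All 5 T cell markers were found in every library. Levels are given as CPM, the UMI count of a gene per 1000000 UMIs of the same cells. Cd4 stood at 89.5 and 96.2 CPM in unstimulated WT and at 407 and 475 in unstimulated SDHA-KO libraries. The γδ T cell markers (6 of 8 in the matrix) summed to 11.2 and 12.5 CPM in stimulated WT libraries, whereas the stimulated SDHA-KO libraries had 90.4 and 115. Without stimulation the sums were 20.9 and 19.2 in WT and 95.0 and 68.4 in SDHA-KO. Stimulated SDHA-KO replicate 1 stood apart in B cell markers, with all 8 detected and a sum of 184 CPM against 64.0 in replicate 2 and 38.3 and 79.7 in WT. Igkc accounted for 107 of that 184. The targeted gene was lower in every SDHA-KO library: Sdha in CD4 cells stood at 92.5 and 91.8 CPM in unstimulated WT, 45.8 and 46.7 in unstimulated SDHA-KO, 80.1 and 77.4 in stimulated WT, and 28.9 and 28.6 in stimulated SDHA-KO. In CD8 cells after stimulation, it was 86.3 and 89.9 in WT and 55.9 and 60.0 in SDHA-KO.

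In what follows, UMIs were summed per library over the cells that the authors classed as CD4 or CD8. CD4 cells numbered 859 to 1315 and CD8 cells 325 to 844 per library. The contrast that chose the genes is shown in the plot of levels by library. After stimulation, Dnm3 and St18 were higher in both SDHA-KO libraries than in both WT libraries, and Mboat2 and St6gal1 were lower, in CD4 as well as CD8 cells.

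**Figure D1:**
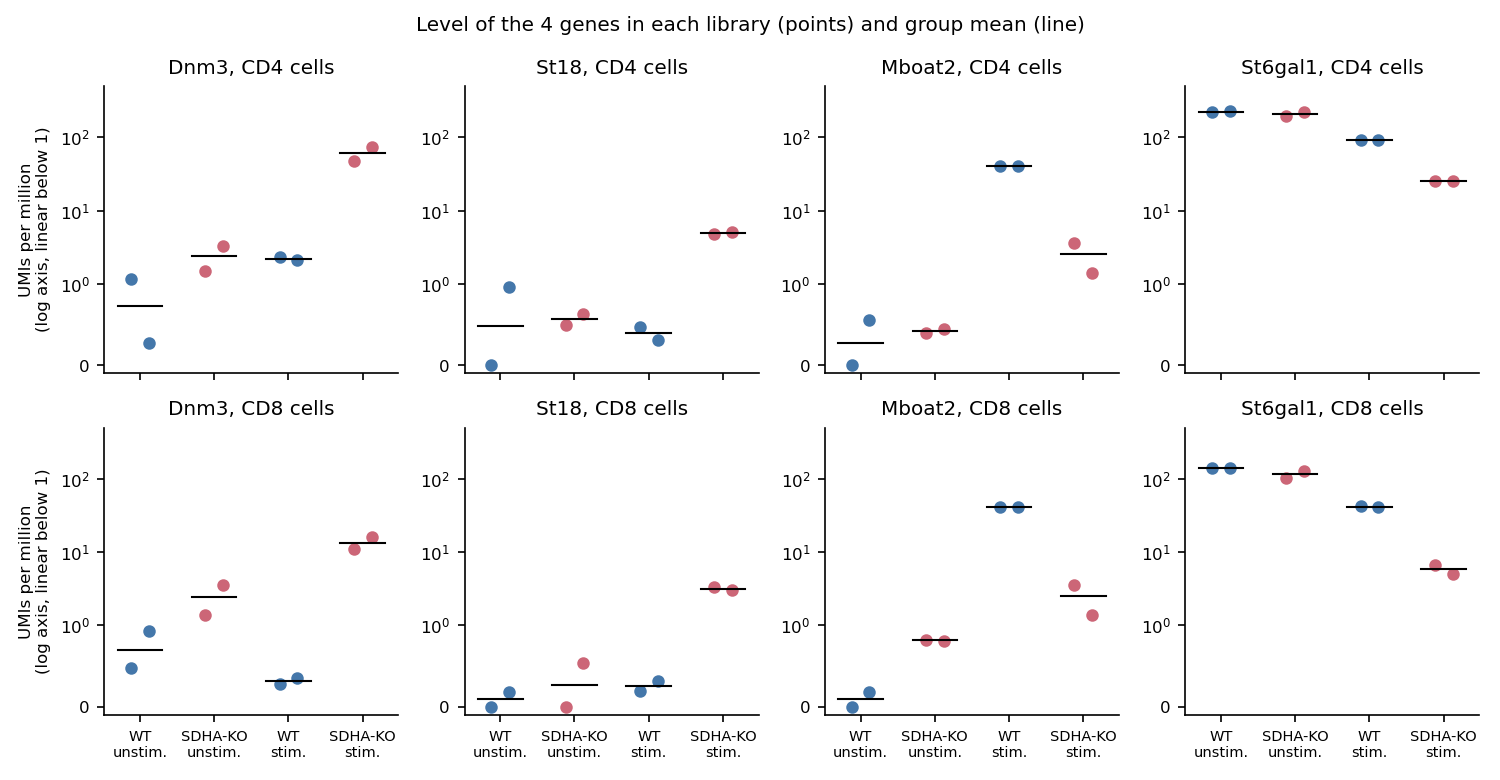
CPM of each gene in CD4 cells (top) and CD8 cells (bottom), 1 point per library and a line at the mean of 2 libraries, on a log axis that is linear below 1. Dnm3 and St18 sit highest in stimulated SDHA-KO, Mboat2 is high only in stimulated WT (40.1 to 41.2), and St6gal1 falls from 219 and 225 in unstimulated WT CD4 cells to 25.7 and 25.2 in stimulated SDHA-KO CD4 cells.

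Dnm3 went from near absence to a clear level in stimulated SDHA-KO cells. In CD4 cells, the unstimulated WT libraries held 8 and 2 UMIs, the unstimulated SDHA-KO libraries 15 and 37, the stimulated WT libraries 58 and 62, and the stimulated SDHA-KO libraries 1319 and 2529. The last pair corresponds to 46.8 and 74.2 CPM, against 2.29 and 2.13 in stimulated WT, so that the groups did not overlap and the SDHA-KO replicates differed more from each other than the WT replicates did. In CD8 cells, stimulated WT held 6 and 8 UMIs (0.29 and 0.36 CPM) and stimulated SDHA-KO 209 and 233 (11.1 and 15.98 CPM). The log2 fold change between stimulated SDHA-KO and WT was 4.75 ± 0.27 (approximate SE, n = 2 libraries per group) in CD4 cells, rank 30 from the highest of 14264 genes tested. In CD8 cells it was 5.39 ± 0.36, rank 14 of 13095. Of all genes tested in this contrast, 43.2% in CD4 cells and 50.4% in CD8 cells passed an adjusted p of 0.05, and nothing is read from these shares for genes chosen by it.

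Without stimulation, Dnm3 was also higher in each SDHA-KO library than in each WT library, at counts that do not carry a call. The level was 0.73 ± 0.64 CPM in WT and 2.40 ± 1.28 in SDHA-KO CD4 cells (mean ± SD, n = 2), and 0.70 ± 0.32 and 2.45 ± 1.52 in CD8 cells. The ratio of the summed UMIs was 3.44 in CD4 cells (95% counting interval 1.73 to 7.60, from 52 against 10 UMIs) and 3.36 in CD8 cells (1.34 to 9.52, from 18 against 7). The log2 fold change was 1.75 ± 0.73 in CD4 cells (adjusted p = 0.276, edgeR quasi-likelihood test with Benjamini-Hochberg adjustment over all genes tested) and 1.61 ± 0.66 in CD8 cells (adjusted p = 0.300, same edgeR test). None of the 4 genes passed in this comparison, though St18 and Mboat2 passed the low-count filter through other groups and nothing is read for them. In it, 1.1% of genes in CD4 cells and 0.947% in CD8 cells passed. Over all T cells the share was 1.75%, and Dnm3 (log2 fold change 1.66 ± 0.69) had an adjusted p of 0.251 with edgeR and of 0.0222 with DESeq2, the lowest of 20 alternatives that reached up to 1.

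In WT cells alone, stimulation left Dnm3 low, and CD4 and CD8 cells differed. The comparison of stimulated with unstimulated WT was not used to choose the genes but shares the stimulated WT libraries with the contrast that was. The comparisons of CD8 with CD4 cells below share them too, so those p-values rest on values that entered the choice. Dnm3 did not pass in CD4 cells (log2 fold change 1.41 ± 0.69, adjusted p = 0.0927, edgeR, and from 0.00615 to 0.727 over 20 alternatives) or in CD8 cells (-1.62 ± 0.76, adjusted p = 0.0808, edgeR). Over all T cells, where 68.9% of genes passed, the value was 0.58 ± 0.69. With library as a block, Dnm3 was lower in CD8 than in CD4 cells of stimulated WT (log2 fold change -2.80 ± 0.31, adjusted p = 1.98e-05, edgeR), from 14 against 120 UMIs and in 2 of 2 libraries. The difference between the CD8 and CD4 responses was -3.05 ± 0.82 (adjusted p = 0.0271, edgeR), but it rests on 10 and 7 UMIs in unstimulated CD4 and CD8 cells. Without WT unstimulated replicate 2 it was -1.67 (adjusted p = 0.586), and without WT stimulated replicate 1 it was -2.85 (adjusted p = 0.0640). Over all 20 alternative settings the adjusted p ran from 0.009999 to 0.778.

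Dnm3 was carried by part of the stimulated SDHA-KO cells rather than by all of them evenly. A UMI was found in 31.0% (95% exact Clopper-Pearson interval 28.3 to 33.7) and 44.4% (41.7 to 47.2) of SDHA-KO CD4 cells, compared with 3.61% (2.46 to 5.08) and 2.48% (1.60 to 3.67) of WT CD4 cells. These intervals cover counting error only. If the same UMIs had fallen on cells in proportion to depth, 61.1% and 75.6% of the SDHA-KO cells would have held a UMI. The WT shares fell short as well, with 6.35% and 6.05% expected. The 1% of cells with most Dnm3 held 20.8% and 11.9% of its UMIs, and the highest cells held 45 and 32. Because SDHA-KO cells were sequenced deeper (median 23669 and 24652 UMIs per CD4 cell against 14753 and 14464 in WT), each cell was also thinned to 5000 UMIs. This left out 74 and 86 SDHA-KO and 18 and 20 WT CD4 cells that were shallower, and gave 13.4% and 23.7% in SDHA-KO against 1.43% and 1.16% in WT. In CD8 cells the shares were 14.5% and 16.7% in SDHA-KO and 0.711% and 0.719% in WT, or 4.34% and 7.18% against 0.119% and 0.361% after thinning. No cell type known to lack Dnm3 was at hand as a background. The lowest shares among the subsets compared in the same SDHA-KO libraries were those of CD8 Tcm4 cells, 1 of 92 and 0 of 73 cells at a median of 8803 and 8227 UMIs.

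**Figure D2:**
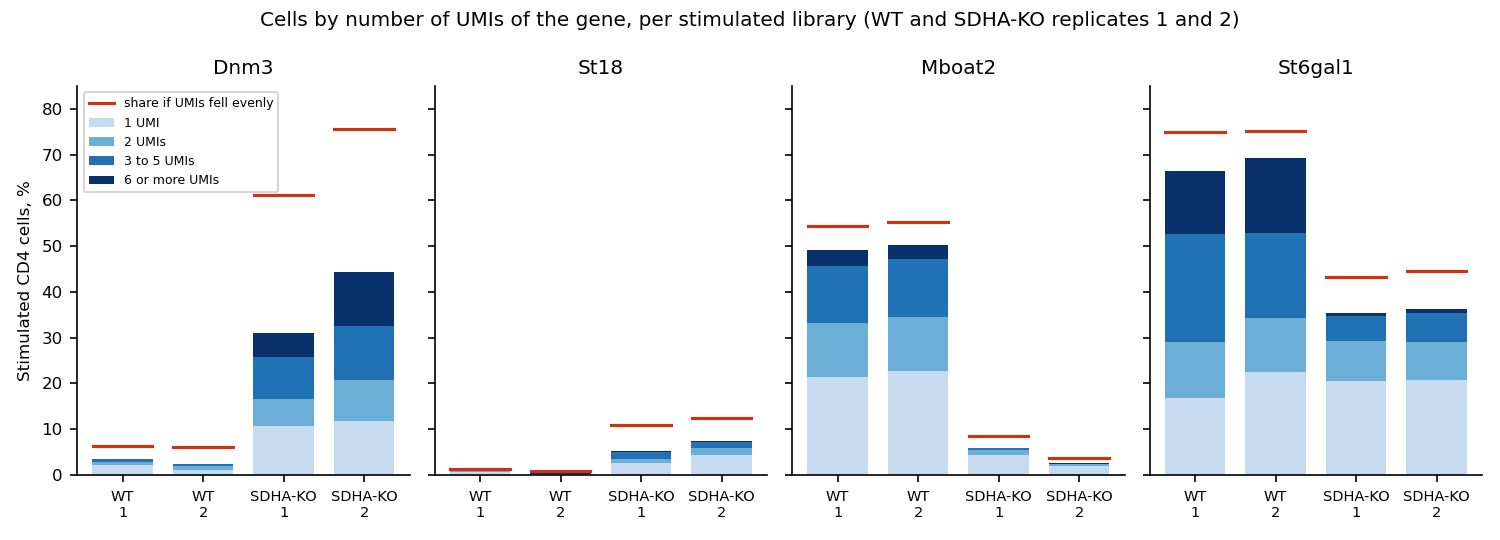
Share of stimulated CD4 cells (in %) with 1, 2, 3 to 5, or 6 or more UMIs of each gene in each of 4 libraries, with a red line at the share expected if the UMIs had fallen evenly by depth. Dnm3 in SDHA-KO lies far under its lines (31.0% and 44.4% against 61.1% and 75.6%), while Mboat2 in WT lies close to them (49.1% and 50.4% against 54.5% and 55.3%).

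The authors named each cluster as a subset, central memory (Tcm) or effector memory (Tem) after stimulation. Of the CD4 subsets, 8 held at least 20 cells in each of the 4 stimulated libraries, and Dnm3 was higher in SDHA-KO in all 8 without overlap, although in Tem7 the WT cells (33 and 30, with 0 UMIs) were too few to show a level as low as that of SDHA-KO. The size of the level depended on the subset. In SDHA-KO, Tcm3 stood at 210 and 316 CPM, Tcm4 at 115 and 256, and Tcm2 at 63.3 and 188. Tem1, Tem2, and Tem3 ranged from 36.9 to 95.5. Tem5, which was the largest CD4 subset in SDHA-KO (32.5% and 29.2%, while WT had 5.47% and 6.51%), stood at only 6.21 and 16.8, and Tem7 at 1.92 and 6.17. In WT the highest of the 8 was Tcm4, at 10.3 and 9.52. When the 8 subsets were weighted equally, Dnm3 in CD4 cells averaged 68.4 and 127 CPM in SDHA-KO against 3.03 and 2.35 in WT. Of 4 CD8 subsets with enough cells, Dnm3 was higher in SDHA-KO in 3, and Tcm4 overlapped (0.99 and 0 CPM against 0 and 0). SDHA-KO Tcm4 CD8 cells carried Sdha at 120 and 110 CPM, above the 102 and 94.4 of WT, and a Trdc UMI in 81.5% and 72.6% of cells. Among the CD4 subsets of SDHA-KO, Tem2 and Tem3, Tem3 and Tem5, and Tem5 and Tem7 did not overlap, whereas Tcm4 overlapped with Tcm3 and with Tcm2, and Tem1 with Tem2.

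**Figure D3:**
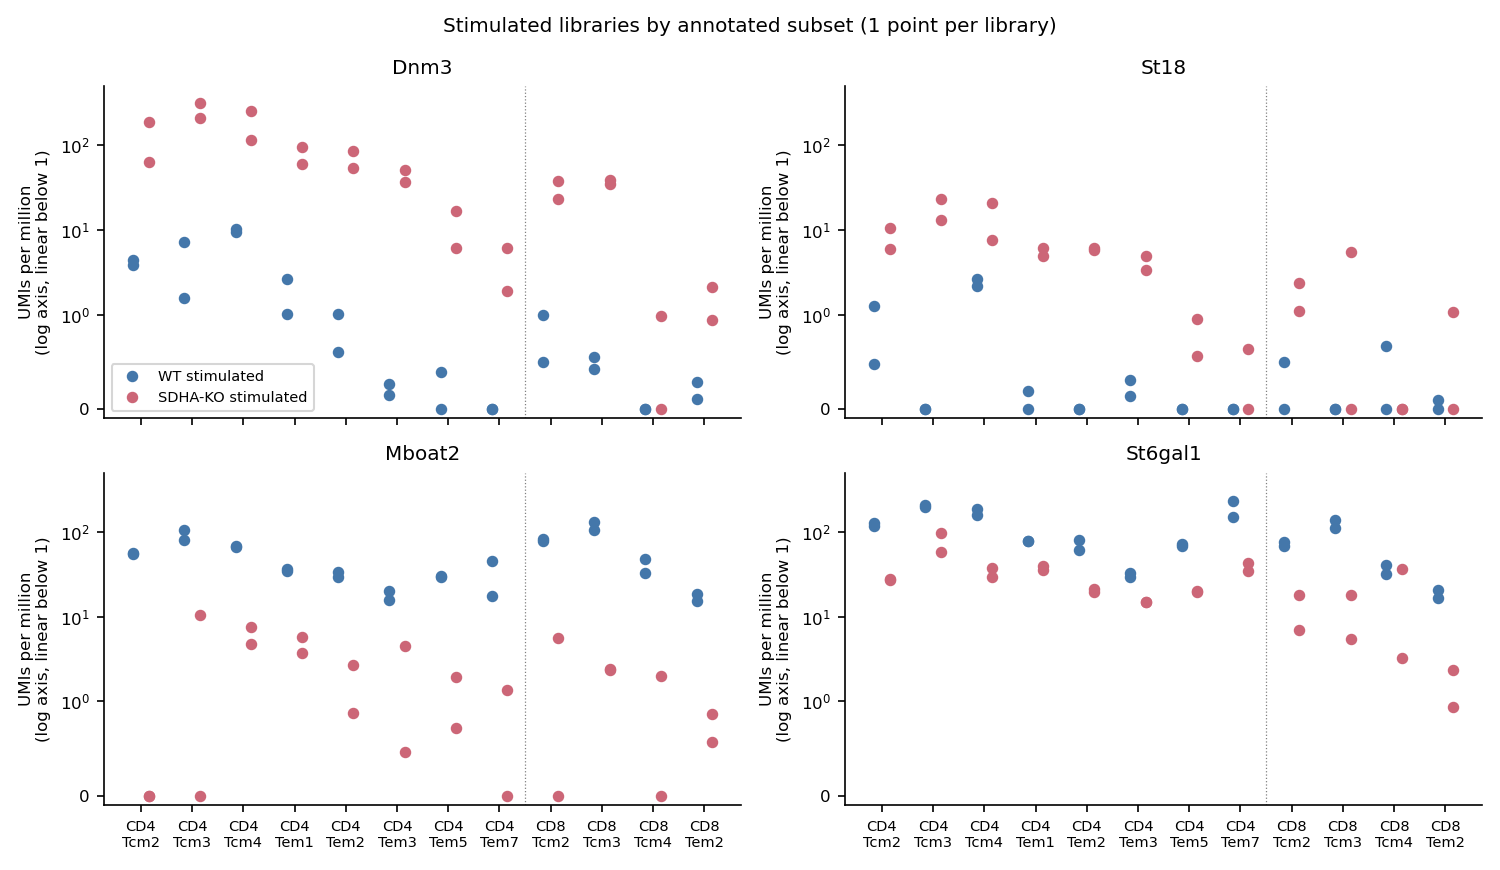
CPM of each gene in the 8 CD4 and 4 CD8 subsets with at least 20 cells in every stimulated library, 1 point per library, on a log axis that is linear below 1. SDHA-KO points lie above WT for Dnm3 in all 8 CD4 subsets and below WT for Mboat2 in all 12 subsets, and in CD8 Tcm4 the St6gal1 points overlap.

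St18, the transcription factor, was also higher in stimulated SDHA-KO cells, at low counts. CD4 cells held 0 and 7 UMIs in unstimulated WT, 5 and 7 in unstimulated SDHA-KO, 12 and 9 in stimulated WT, and 136 and 175 in stimulated SDHA-KO. CD8 cells held 4 and 7 in stimulated WT and 63 and 44 in stimulated SDHA-KO, and at most 2 in any unstimulated library. The level was 0.39 ± 0.12 CPM in WT and 4.98 ± 0.22 in SDHA-KO for stimulated CD4 cells and 0.25 ± 0.09 and 3.18 ± 0.22 for stimulated CD8 cells (mean ± SD, n = 2). The log2 fold change between stimulated SDHA-KO and WT was 3.64 ± 0.46 in CD4 and 3.65 ± 0.54 in CD8 cells. The groups did not overlap, and the replicates of SDHA-KO lay closer together than for Dnm3.

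In the comparisons that did not choose it, St18 was at the limit of detection. It passed the filter on low counts through stimulated SDHA-KO, so the values below are descriptions and no test is read. Unstimulated SDHA-KO and WT CD4 cells differed by a log2 fold change of 0.16 ± 0.84, a ratio of 1.14 with a counting interval of 0.412 to 3.40. Stimulated and unstimulated WT CD4 cells differed by -0.57 ± 0.80, from 21 and 7 UMIs. CD8 and CD4 cells of stimulated WT differed by -0.65 ± 0.57. The sign was positive when only cells under 10% mitochondrial UMIs or cells of strict identity were kept. The counts were too low to show a change in any of these comparisons.

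St18 UMIs were found in few stimulated cells. They occurred in 5.19% (95% exact interval 3.97 to 6.64) and 7.40% (6.03 to 8.97) of SDHA-KO CD4 cells, compared with 1.048% (0.480 to 1.98) and 0.414% (0.113 to 1.06) of WT CD4 cells, and after thinning in 2.16% and 2.25% against 0.595% and 0.106%. The top 1% of SDHA-KO CD4 cells held 44.9% and 34.3% of the UMIs. St18 lay above WT in both SDHA-KO libraries in 7 of 8 CD4 subsets, with 13.1 and 23.4 CPM in Tcm3. In Tem5 (0.56 and 0.96) the 47 and 63 WT cells, with 0 UMIs, were too few to show a level this low. In CD8 cells 1 of 4 subsets was apart, Tcm2, with 1 and 1 UMIs against 1 and 0, which shows no difference at this depth. The CD8 subset with most St18 in SDHA-KO was Tem6 (28 and 28 UMIs, 19.8 and 19.8 CPM, in 43 and 44 cells), which also carried Dnm3 at 30.3 and 43.1. WT had too few Tem6 cells (10 and 17) for a comparison. After thinning, Dnm3 was detected in 30.4% and 63.0% of the 23 and 27 SDHA-KO CD4 cells with a St18 UMI, against 13.0% and 22.8% of the other CD4 cells of the same libraries. These shares pool all CD4 subsets. In SDHA-KO Tem5, without thinning, Dnm3 was found in 8.13% and 16.3% and St18 in 0.813% and 1.33% of cells. Co-detection within subsets was not tested.

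Mboat2, the lysophospholipid acyltransferase, rose on stimulation in WT and was far lower in stimulated SDHA-KO. Unstimulated CD4 cells held 0 and 4 UMIs in WT and 4 and 5 in SDHA-KO. Stimulated WT CD4 cells held 1014 and 1184 (40.1 and 40.7 CPM), and stimulated SDHA-KO CD4 cells 102 and 48 (3.62 and 1.41 CPM). CD8 cells showed almost the same levels, with 41.1 and 41.2 CPM in stimulated WT, 3.599 and 1.37 in their SDHA-KO counterparts, and 0 to 3 UMIs in each unstimulated library. SDHA-KO replicate 1 was the higher of the pair in both classes. The log2 fold change between stimulated SDHA-KO and WT was -4.06 ± 0.29 in CD4 cells, rank 33 from the lowest, and -3.92 ± 0.23 in CD8 cells, rank 21 from the lowest. The summed UMIs gave a level 16.8 times lower in SDHA-KO CD4 cells (counting interval 14.2 to 19.9) and 15.7 times lower in CD8 cells (12.6 to 19.6). These intervals cover counting error only and leave out the difference between the SDHA-KO libraries, 3.62 and 1.41 CPM in CD4 cells.

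The rise of Mboat2 in WT is given as a description, because the gene was chosen for its high values in the same stimulated WT libraries and passed the filter on low counts only through them. In CD4 cells the ratio of stimulated to unstimulated summed UMIs was 142 (counting interval 55.4 to 522, from 2198 against 4 UMIs), and both stimulated libraries were higher. The CD8 ratio was 394 with a wide counting interval of 70.6 to 15564, since unstimulated cells held 1 UMI. Of all genes tested, 66.3% in CD4 cells and 65.7% in CD8 cells passed between stimulated and unstimulated WT, St6gal1 and Mboat2 among them, and for Mboat2 nothing is read from the call. SDHA-KO cells held 238 Mboat2 UMIs after and 15 before stimulation over all T cells, a ratio of 4.73 (counting interval 2.81 to 8.59), against 193 (82.4 to 593) in WT. Between CD8 and CD4 cells of stimulated WT the log2 difference was -0.04 ± 0.08, also given as a description. In that comparison 26% of genes passed, and the sign for Mboat2 turned without composition normalization. Without stimulation, the SDHA-KO and WT values of Mboat2 were too low to compare (15 against 5 UMIs over all T cells).

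Mboat2 was spread widely over the WT cells. A UMI was present in 49.1% (95% exact interval 45.7 to 52.5) and 50.4% (47.2 to 53.6) of WT CD4 cells and in 5.89% (4.60 to 7.42) and 2.57% (1.78 to 3.59) of SDHA-KO CD4 cells, although SDHA-KO cells were deeper. Thinning gave 19.9% and 22.9% against 1.98% and 0.417%. In CD8 cells the shares were 46.2% and 47.1% in WT against 7.44% and 2.78% in SDHA-KO. Mboat2 was lower in SDHA-KO in all 8 CD4 and all 4 CD8 subsets compared. Among WT cells, Tcm3 had the highest levels of the compared subsets (106 and 80.6 CPM in CD4, 106 and 132 in CD8), while CD4 Tem3 (15.7 and 20.2) and CD8 Tem2 (15.1 and 18.3) were low. In SDHA-KO no compared subset exceeded 10.5. Averaged evenly over subsets, CD4 cells had 48.4 and 42.2 in WT and 4.13 and 1.48 in SDHA-KO.

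St6gal1, the sialyltransferase, was already detected in most resting CD4 T cells, and it fell on stimulation in WT. CD4 cells held 1485 and 1637 UMIs in unstimulated WT (219 and 225 CPM), 1967 and 2505 in unstimulated SDHA-KO (196 and 224), 2322 and 2666 in stimulated WT (91.8 and 91.7), and 723 and 859 in stimulated SDHA-KO (25.7 and 25.2). CD8 cells stood at 140 and 139 in unstimulated WT, 103 and 128 in unstimulated SDHA-KO, 42.4 and 40.97 in stimulated WT, and 6.72 and 5.07 in stimulated SDHA-KO. The stimulated groups were apart in both classes, while the unstimulated groups overlapped in range for CD4 cells only. The log2 fold change between stimulated SDHA-KO and WT was -1.87 ± 0.08 in CD4 cells, rank 368 from the lowest, and -2.74 ± 0.13 in CD8 cells, rank 73 from the lowest.

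In WT cells the fall was larger in CD8 than in CD4 cells. The stimulated WT values used here also entered the choice of the gene. The log2 fold change between stimulated and unstimulated WT was -1.50 ± 0.07 in CD4 cells (adjusted p = 1.25e-08, edgeR) and -2.23 ± 0.11 in CD8 cells (adjusted p = 8.93e-09, edgeR), lower in 2 of 2 libraries in each class. The difference between the classes was -0.71 ± 0.08 (adjusted p = 7.50e-05, edgeR). Of the 4 genes, 2 passed in this test of the difference, against 12.1% of all genes. St6gal1 was also lower in CD8 than in CD4 cells before stimulation (-0.50 ± 0.06, adjusted p = 6.85e-05, edgeR), as the only gene of the 4 to pass where 15.2% of genes did, and after it (-1.21 ± 0.06, adjusted p = 6.18e-09, edgeR). Unstimulated SDHA-KO and WT cells differed by -0.10 ± 0.07 in CD4 cells (adjusted p = 0.533, edgeR) and by -0.41 ± 0.11 in CD8 cells (adjusted p = 0.116, edgeR). The CD8 value passed when only the 4 unstimulated libraries were fitted (adjusted p = 0.0459), and ran from 0.0459 to 1 over 20 alternatives. The difference of this SDHA-KO effect between CD8 and CD4 cells was -0.30 ± 0.09 (adjusted p = 0.437, edgeR), in a comparison where 0 of the 4 genes and 0.0421% of all genes passed.

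St6gal1 was detected in most CD4 cells of WT, in 70.1% and 72.3% without stimulation and in 66.4% (95% exact interval 63.1 to 69.5) and 69.2% (66.2 to 72.1) with it, and in 35.4% (32.7 to 38.3) and 36.3% (33.7 to 39.0) of stimulated SDHA-KO cells. After thinning the shares were 61.5% and 61.5%, 36.1% and 38.3%, and 12.04% and 11.5%. In stimulated CD8 cells, thinning left 19.5% and 18.9% in WT and 2.76% and 2.05% in SDHA-KO. St6gal1 was lower in SDHA-KO in all 8 CD4 subsets and in 3 of 4 CD8 subsets, with overlap in CD8 Tcm4 (36.5 and 3.29 against 32.2 and 40.7 CPM). Among the compared subsets of WT, those with most St6gal1 were CD4 Tem7 (149 and 230), Tcm3 (207 and 198), and Tcm4 (160 and 187), and the lowest was CD8 Tem2 (16.8 and 20.8). CD4 Tcm5, with too few SDHA-KO cells to compare (14 and 18), stood higher in WT, at 256 and 369.7 CPM. Among unstimulated WT cells, CD4 Naive1 stood at 281 and 290, and CD4 Naive4 at 113 and 129. Averaged evenly over subsets, stimulated CD4 cells had 114 and 121 in WT and 31.0 and 36.1 in SDHA-KO. In stimulated WT CD4 cells after thinning, St6gal1 was found in 50.3% and 49.3% of cells with a Mboat2 UMI and in 32.6% and 35.1% of those without. These shares also pool all CD4 subsets.

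The CD8 class of stimulated SDHA-KO contained many cells with γδ T cell receptor transcripts. Dnm3, St18, and St6gal1 were lower in them than in cells with no Trdc UMI, while the Mboat2 values overlapped. Cells with at least 2 Trdc UMIs numbered 254 of 511 and 198 of 396, against 21 of 844 and 25 of 834 in WT. In these SDHA-KO cells Sdha stood at 76.4 and 70.3 CPM, and in the 209 and 174 cells with no Trdc UMI at 36.9 and 33.6. Dnm3 was at 3.88 and 7.83 in the Trdc-carrying cells and at 21.1 and 27.5 in the others, and St18 at 1.99 and 0.73 and at 5.73 and 6.31. Mboat2 was low in both (3.51 and 1.10, and 3.91 and 1.88), as was St6gal1 (4.26 and 2.94, and 10.9 and 7.67). In cells with no Trdc UMI, WT held 0.30 and 0.38 of Dnm3, 0.20 and 0.29 of St18, 40.97 and 42.2 of Mboat2, and 41.02 and 42.0 of St6gal1. These values are a description, since the contrast of stimulated SDHA-KO with WT chose the 4 genes.

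**Figure D4:**
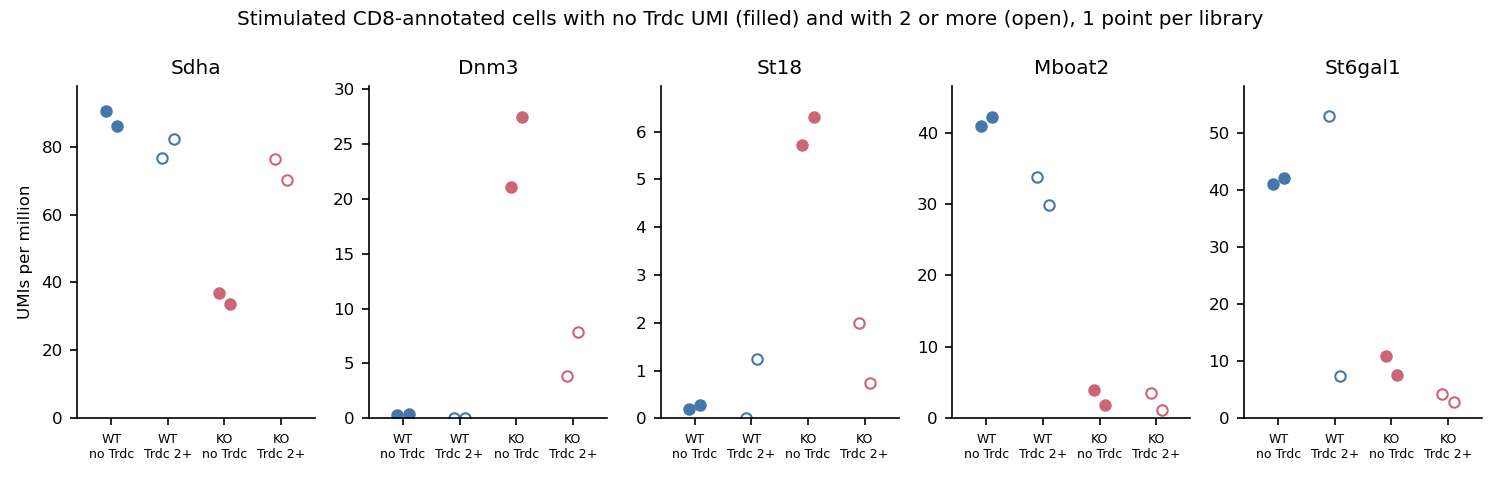
CPM of Sdha and the 4 genes in stimulated CD8-class cells with no Trdc UMI (filled) and with 2 or more (open), 1 point per library, on linear axes that start at 0. In SDHA-KO the open Sdha points (76.4 and 70.3) lie nearer to WT and the filled ones (36.9 and 33.6) below, Dnm3 and St18 are higher in the filled points, and Mboat2 is low in both.

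The share of cells rich in mitochondrial UMIs also differed between stimulated WT and SDHA-KO, and the levels of the 4 genes varied with it. In stimulated WT CD4 cells, those with at least 10% mitochondrial UMIs had 72.9 and 66.9 CPM of Mboat2, 152 and 167 of St6gal1, and 7.10 and 5.09 of Dnm3. Those under 3% had 26.1 and 22.1, 59.3 and 53.5, and 0.28 and 1.00. St18 had 10 and 7 UMIs in the former and 2 and 1 in the latter. In the 818 and 923 SDHA-KO CD4 cells under 3%, Dnm3 stood at 40.4 and 55.6, St18 at 3.93 and 3.72, Mboat2 at 2.70 and 1.44, and St6gal1 at 23.6 and 23.1. In WT cells of this low class, St18 rested on 2 and 1 UMIs. The SDHA-KO and WT values in this class are a description, since the genes were chosen by the contrast of the same libraries. In SDHA-KO CD4 cells with at least 10%, Dnm3 was at 92.3 and 258. Without stimulated SDHA-KO replicate 1, the library with high B cell markers, the log2 fold changes between stimulated SDHA-KO and WT were 5.06 for Dnm3, 3.70 for St18, -4.84 for Mboat2, and -1.87 for St6gal1 in CD4 cells. The CD8 values in the same order were 5.63, 3.57, -4.83, and -2.97. The Mboat2 value was larger in size without that library, at -4.84 against -4.06 in CD4 cells. The part of mitochondrial content in the differences was not tested.

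Other genes of the same families were tested in stimulated SDHA-KO against WT, since they did not enter the choice. These family lists were drawn up with the results for the 4 genes known. Of the dynamin superfamily, GTPases that cut or fuse membranes, 10 of 12 listed genes were tested. In CD4 cells 2 rose and 3 fell, and in CD8 cells 0 rose and 5 fell, so that 5 of 10 passed in each class where 43.2% (CD4) and 50.4% (CD8) of all genes did, with medians of -0.07 and -0.23 on the log2 scale, while the medians over all genes were 0.00 and -0.01. Dnm1, the neuronal dynamin, moved opposite to Dnm3 (log2 fold change -2.12 ± 0.46 in CD4, adjusted p = 0.00511, and -3.32 ± 0.63 in CD8 cells, adjusted p = 0.00191, edgeR). The mitochondrial fission dynamin Dnm1l fell by 0.42 and 0.53, and Atl3, an atlastin that fuses endoplasmic reticulum membranes, fell by 0.38 in CD8 cells. Dnm2, the dynamin of most cell types, fell by 0.29 in CD8 cells and did not pass in CD4 cells (-0.16, adjusted p = 0.0932, edgeR). Gbp2, an interferon-induced GTPase, rose by 0.61 in CD4 cells. The mitochondrial fusion genes Mfn1 and Mfn2 went apart in CD4 cells, with -0.41 and 0.37. Neither Myt1 nor Myt1l, the relatives of St18, had enough UMIs to be tested.

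Of the acyltransferases, 18 of 20 were tested. In CD4 cells 3 rose and 7 fell (median -0.13), and in CD8 cells 5 rose and 5 fell (median 0.07). These 10 of 18 in each class lie near the 43.2% and 50.4% of all genes. Soat2 and Soat1, which esterify cholesterol, fell by 2.42 and 0.71 on the log2 scale in CD4 cells and by 1.35 and 0.80 in CD8 cells, and Gpam, which starts glycerolipid synthesis at mitochondria, fell by 0.81 and 0.49. Agpat2, which makes phosphatidic acid, rose by 0.72 and 0.83, and Gpat3, its neighbor upstream in the same route, rose by 0.95 in CD8 cells, as did the lysophosphatidylcholine acyltransferase Lpcat4 by 0.85. Of the closest relatives of Mboat2, Mboat1 fell by 0.49 and Mboat7 by 0.40 in CD4 cells, and neither passed in CD8 cells (-0.31 and 0.06). Mboat2 was chosen for its value in this contrast, so nothing is read from its larger change. In stimulated against unstimulated WT, 9 acyltransferases rose in CD4 and 11 in CD8 cells and 1 fell in each, near the 66.3% and 65.7% of all genes that passed.

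Of the sialic acid genes, which make, attach, and remove sialic acid, 22 of 28 were tested in CD4 and 21 in CD8 cells. In CD4 cells 7 rose and 1 fell (median 0.25), and in CD8 cells 6 rose and 4 fell (median 0.03). The 8 of 22 and 10 of 21 that passed lie near the same 43.2% and 50.4%. St6galnac3, a sialyltransferase of O-glycans and gangliosides, rose by 1.10 ± 0.12 in CD4 cells (adjusted p = 3.28e-05, edgeR) and fell by 0.39 in CD8 cells, while St6galnac5 fell by 2.48 and St6galnac4 rose by 1.02 in CD8 cells. St8sia1, which makes the ganglioside, rose by 0.66 in CD4 cells. Cmas, which activates sialic acid, rose by 0.55 and 0.37, and Gne, the entry enzyme of sialic acid synthesis, rose by 0.53 in CD4 cells. The lysosomal sialidase Neu1 rose by 0.49 and 0.87, and Neu3, the plasma membrane sialidase, fell by 1.23 in CD8 cells. The value of St6gal1 lay below the range of the other genes of its list in both classes. Nothing is read from this, since St6gal1 was chosen by this contrast. Between unstimulated SDHA-KO and WT, 1 gene of the 3 lists passed, Gbp2 in CD4 cells (log2 fold change 0.93, adjusted p = 0.0445, edgeR).

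**Figure D5:**
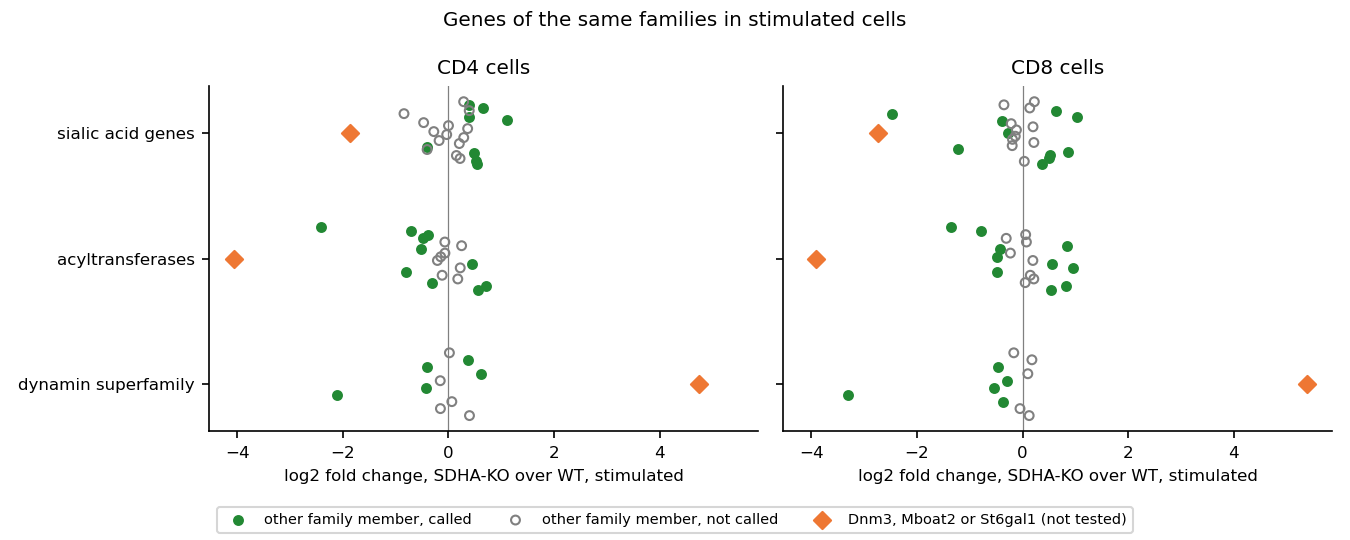
Log2 fold change between stimulated SDHA-KO and WT of the listed genes of 3 families in CD4 (left) and CD8 cells (right). Filled circles passed an adjusted p of 0.05 and open ones did not, and diamonds mark Dnm3 (4.75 and 5.39), Mboat2 (-4.06 and -3.92), and St6gal1 (-1.87 and -2.74), which were not tested.

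Neighboring genes in the matrix were followed over all T cells. Dnm3os, a long noncoding RNA on the opposite strand within Dnm3, had 3 and 4 UMIs in stimulated SDHA-KO and none elsewhere. Whether counting used strand is not given in the sources used here. Whether reads of overlapping genes on opposite strands were kept apart was therefore not checked. 4930558K02Rik, whose span ends next to that of Dnm3, stayed between 0.60 and 1.37 CPM in all 8 libraries. Pcmtd1, the nearest protein-coding gene after St18, stood at 39.8 and 36.4 in stimulated WT and 21.1 and 20.2 in stimulated SDHA-KO, opposite to St18. Eef1aknmt, on the other side of Dnm3, stood at 10.7 and 11.6 in stimulated WT and 13.6 and 15.2 in stimulated SDHA-KO. Of the neighbors of Mboat2, Kidins220 stood at 58.4 and 61.3 in stimulated WT and 49.0 and 48.9 in stimulated SDHA-KO. Rrm2, a subunit of ribonucleotide reductase, went the other way, with 91.9 and 94.0 and with 134 and 124. Alkal1 beside St18 and Adipoq beside St6gal1 had at most 3 UMIs in any library. BC106179, a noncoding RNA antisense to the start of St6gal1, fell from 4.84 and 6.86 in unstimulated WT to 0.17 and 0.27 in stimulated WT and was at 0.21 and 0.18 in stimulated SDHA-KO.

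Across the 16 sums of 8 libraries and 2 classes, the genes whose log2 level followed each gene most closely were listed as a description, since the CD4 and CD8 sums of a library share its cells and depth. For Dnm3 they were Sept7, Cstb, Nop10, Glrx2, and Cnot6 (Pearson r 0.94 to 0.92), and for St18 they were Tars2, Rad51d, Cdc23, Ccng1, and Snx6 (0.90 to 0.89). For Mboat2 they were Cep170, Ufsp2, Lmln, Hmgcs1, and Luc7l2 (0.98 to 0.95), of which Hmgcs1 encodes an enzyme of cholesterol synthesis. For St6gal1 they were Patj, Map2k6, Asb3, Pja2, and E130102H24Rik (0.98 for each). Dnm3 and St18 followed each other less closely (r = 0.78), and Dnm3 and Mboat2 hardly at all (r = -0.06).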

How the data were processed

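RNA was measured by 10x Genomics 3′ sequencing of splenic T cells in 8 libraries. The authors aligned reads to mm10 with Cell Ranger (version not given in the sources used here), integrated them with Seurat, discarded cells with very many detected genes as well as clusters that lacked CD3 transcripts, and deposited raw UMI counts. Beside these counts, the authors deposited the percent of mitochondrial UMIs and the class and subset of each cell. Groups and replicates came from the labels, and each cell's library from the deposited annotation. No sample was left out and no doublet caller was run.

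The 4 genes and the lists of families, markers, and motifs were chosen with earlier results of these data known. For all T cells and for each class, the UMIs of a library were added up, since the library is the replicate. Library totals ran from 3640136 UMIs (CD8 cells) to 51398728 (all T cells), so that a count of 0 in a group allows up to 3 UMIs. Genes were kept by filterByExpr (minimum count 10, minimum total 15), scaled by TMM, and tested with the quasi-likelihood test of edgeR 4.0.16 in R 4.3.3 over all 8 libraries, with library as a block where CD4 and CD8 sums were compared, and p-values were adjusted by Benjamini-Hochberg over all genes tested (threshold 0.05). All 4 genes passed the filter in each class, St18 and Mboat2 through the groups in which they are high. Where a count of the 4 genes that passed is given, nothing is read for these 2. The value after ± of a log2 fold change is an approximate SE. It is the absolute log2 fold change divided by the square root of the edgeR F statistic. That statistic uses a spread estimated over all 8 libraries. The levels in CPM, computed from the deposited counts, were not TMM-scaled. Counting intervals and exact Clopper-Pearson intervals are at 95%. They cover counting error only and leave out the spread between libraries. Other genes were named if they passed the test, at most 4 per family and class with the largest change, Dnm2, Mfn2, Mboat1, and Mboat7 being added after their values were seen, and by the 5 highest correlations with each gene and by position next to it. Alternatives included DESeq2 1.42.0, limma 3.58.1, other size factors, no low-count filter, a 2-fold minimum, cells of strict identity (a Cd4 or Cd8 UMI, none of the other, and none of Trdc), cells under 10% mitochondrial UMIs, cells thinned to 5000 UMIs, the replicate number as a block, and each library left out. The fits were also run on simulated data with a fixed spread and few changed genes. That setting differs from the stimulation contrast, so nothing is read from it.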

Additional observations from a re-analysis of the deposited data

Results flagged for a closer look

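The response of WT cells to stimulation differed between CD8 and CD4 cells for 2 of the 4 genes by a test of the difference itself. Both differences use the stimulated WT values that entered the choice of the 4 genes. For St6gal1 the log2 difference was -0.71 ± 0.08 (adjusted p = 7.50e-05, edgeR), lower in CD8 cells, with a fall in both classes in 2 of 2 libraries. It remained past the threshold in 18 of 20 alternatives and was not past it with a 2-fold minimum or with limma on mean log values. For Dnm3 the log2 difference was -3.05 ± 0.82 (adjusted p = 0.0271, edgeR), from 120 against 10 UMIs in CD4 and 14 against 7 in CD8 cells, and it was past the threshold in 11 of 20 alternatives.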

How the results depend on the processing

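Of 811 values and settings, 738 counted as unchanged, 13 lost and 9 gained a call, 46 moved, and 5 turned sign. Unchanged meant the same direction and side of the threshold, or a value within the spread of the libraries. For counts of genes that passed, it meant a count equal or close to the main one. Where 0 of the 4 genes passed between unstimulated SDHA-KO and WT (2724, 2282, and 1852 genes at an unadjusted p under 0.05 in all T, CD4, and CD8 cells, edgeR), 1 passed with DESeq2 in all T cells (Dnm3), 1 without a low-count filter in CD4 cells (Dnm3), and 1 with only the 4 libraries compared in CD8 cells (St6gal1). Between CD8 and CD4 cells, 0 in place of 1 passed with a 2-fold minimum in unstimulated WT, and 1 in place of 2 with limma in stimulated WT. For the difference in stimulation effect, in place of 2 genes 0 passed with a 2-fold minimum or limma and 1 with cells under 10% mitochondrial UMIs, strict cells, thinned cells, or no library block, and 1 to 2 with each library left out. The family genes that passed, 23 in CD4 and 25 in CD8 cells, numbered 1 and 1 with a 2-fold minimum, and in CD8 cells 14 under 10% mitochondrial UMIs and 16 after thinning. The cause was not tested.

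The log2 fold changes between stimulated SDHA-KO and WT kept their sign. In CD4 cells they were, for cells under 10% mitochondrial UMIs, 5.68 for Dnm3, 5.33 for St18, and -1.68 for St6gal1. Thinning gave 4.14, 3.06, and -2.08 in that order, strict cells 4.74 for St18 and -1.91 for St6gal1, and no filter -1.83 for St6gal1. In CD8 cells, strict cells gave 6.23 for Dnm3 and 5.14 for St18, thinning 4.47 for Dnm3 and -3.05 for St6gal1, and cells under 10% mitochondrial UMIs 4.37 for St18 and -2.43 for St6gal1. Limma, on another scale (differences of mean log values per cell), gave 0.30 and 0.086 for Dnm3 (CD4, then CD8), 0.029 and 0.021 for St18, -0.31 and -0.30 for Mboat2, and -0.41 and -0.25 for St6gal1. With each library left out, St6gal1 in CD4 cells ran from -1.88 to -1.85, and in CD8 cells St18 ran from 3.32 to 4.03 and Mboat2 from -4.83 to -3.48.

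The sign turned for St6gal1 between unstimulated SDHA-KO and WT over all T cells (from -0.19 to 0.0049 with each library left out, the latter without SDHA-KO unstimulated replicate 1), and for Dnm3 in stimulated against unstimulated WT over all T cells (-0.18 under 10% mitochondrial UMIs). It also turned between CD8 and CD4 cells of stimulated WT, for St18 (0.44 under 10% mitochondrial UMIs, 0.12 in strict cells) and for Mboat2 (0.026 without composition normalization). None of these 4 values had passed the test.

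Same-numbered replicates did not deviate together (correlations from -0.082 to 0.10), so the numbers were not taken to pair the libraries. With the replicate number as a block, 1 gene in place of 2 passed for the difference in stimulation effect (Dnm3 -2.99, adjusted p = 0.101), and 3 in place of 2 passed in stimulated against unstimulated WT CD4 and CD8 cells.

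Without composition normalization, the median gene's log2 fold change in stimulated against unstimulated WT was 0.43, 0.30, and 0.57 in all T, CD4, and CD8 cells, against 0.08, 0.08, and 0.09 with it. Genes higher and lower were then 7451 and 3279 in place of 5647 and 4872, 6257 and 3308 in place of 5160 and 4295, and 6918 and 2230 in place of 4644 and 3962. They were 255 and 123 in place of 102 and 165 between unstimulated SDHA-KO and WT over all T cells, and 103 and 38 in place of 37 and 87 in CD8 cells. Between CD8 and CD4 cells they were 656 and 2335 in place of 1136 and 1023 in unstimulated WT, 2462 and 1455 in place of 1730 and 1969 in stimulated WT, and 2340 and 506 in place of 747 and 977 for the difference in stimulation effect. With 2 libraries per group and as few as 0 to 8 UMIs in resting cells, Dnm3, St18, and Mboat2 could be compared without stimulation only coarsely.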
